A study of Mus musculus with 15 samples.

Results

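The genes described here are the mouse zinc finger genes whose symbol is Zfp followed by a digit. They were chosen by that symbol alone, as every probe set (a group of short array probes reported as 1 value) whose only gene in the platform annotation has such a name. This gave 254 of the 22626 probe sets tested, for 173 of 12393 genes, of which 171 are protein coding, 1 is a pseudogene and 1 is a long noncoding RNA. The family was singled out with the polysomal against total differences of these arrays known, so its counts in those comparisons are a description, and nothing is read from them about the family as a whole. All members were tested, because no filter on low values was applied.

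The cells were neural stem cells grown as neurospheres, from female mice of the strain labelled C57/B16 at an age of 6 weeks. CD95L-T4 is a trimerised construct of the CD95 (Fas) ligand, and RNA was taken 48 h after its addition. The 4 groups were polysomal RNA of CD95L-T4 cultures (3 arrays), total RNA of CD95L-T4 cultures (4 arrays), polysomal RNA of control cultures (4 arrays) and total RNA of control cultures (4 arrays). No genetic change is named for any group, and the controls are labelled only as controls. Polysomal RNA is the RNA bound to several ribosomes at once, and it was prepared by a phenol and chloroform method, whereas a column kit was used for total RNA. The labels also give the molecule as polyA RNA for the polysomal samples and as total RNA for the others, so fraction, extraction and molecule cannot be told apart. Fewer cells of a type and less RNA per cell cannot be told apart either. The titles call the replicates biological.

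Most proteins of this name carry zinc fingers of the C2H2 kind, short loops held by a zinc ion that read DNA, and many sit in clusters of related genes. A large share of such proteins in mammals also carries a KRAB domain, which recruits the corepressor TRIM28 and, through it, the histone methyltransferase SETDB1 to silence transposons and imprinted genes. The symbol also covers proteins of other kinds, among them the CCCH zinc finger proteins of the Zfp36 group, which bind AU-rich elements of mRNAs and promote their decay.

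Values are log2 intensities, and a difference of 1 in log2 is a 2-fold difference. An intensity depends on the probes as well as on the mRNA, so brighter and dimmer below describe probe sets and not amounts of transcript. All arrays had similar overall signal, with medians over all tested probe sets of 6.83 to 6.98, and arrays of the same group correlated at 0.994 to 0.998. Of the 10 measured neural stem cell markers, 9 lay above the median level of all probe sets, with Sox2, Nes and Olig2 at percentiles 95.6, 93.1 and 96.5 and Prom1 at percentile 14.1. Markers of microglia, endothelium, fibroblasts and ependyma all lay below that median. Above it lay 3 of 8 neuronal, 1 of 6 oligodendrocyte and 3 of 6 astrocyte markers. Actin probe sets at both ends of the transcript give a check on RNA quality, and their 3′ minus 5′ value was 0.59 to 1.03 in CD95L-T4 polysomal, 0.32 to 0.46 in CD95L-T4 total, 0.74 to 0.81 in control polysomal and 0.28 to 0.57 in control total arrays. This value was higher in every polysomal array than in any total array, and its part in the polysomal against total differences below was not tested. The added poly-A control transcripts averaged 7.03 to 8.38 in CD95L-T4 polysomal arrays, with the highest value in replicate 2, 6.45 to 7.34 in CD95L-T4 total, 7.24 to 7.70 in control polysomal and 6.44 to 6.96 in control total arrays.

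Zfp probe sets were of middle brightness. Their mean level over the 15 arrays ran from 2.61 to 11.08, with a median of 7.16 and quartiles of 5.66 and 8.20, against a range of 2.42 to 14.42, a median of 6.92 and quartiles of 4.60 and 8.90 for all probe sets. Of 4 level classes of equal size over all probe sets, the dimmest held 30 members (11.8%), the next held 83 (32.7%), the next 106 (41.7%) and the brightest 35 (13.8%). The brightest members were Zfp207 at 11.08, whose protein (BuGZ) binds the spindle checkpoint protein Bub3, and the mRNA decay factor Zfp36l2 at 10.99. They were followed by Zfp330, whose protein lies in the nucleolus, at 10.81. Zfp24, known for its need in myelination, stood at 10.66, and Zfp622, whose yeast relative Rei1 acts in maturation of the large ribosomal subunit, at 10.54. Zfp871, Zfp131 (with a BTB domain) and Zfp106 (an RNA-binding protein) stood at 10.20, 10.02 and 9.97. The dimmest were the pseudogene Zfp353-ps at 2.61, Zfp709 at 2.70 and Zfp982 at 2.81. Zfp42, the pluripotency marker Rex1, was among the dim ones at 2.86 (percentile 2.31), and it passed the test in no comparison.

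The median over the 254 members was higher in every polysomal array than in every total array. It was 7.28, 7.37 and 7.37 in the CD95L-T4 polysomal arrays and 6.97, 6.98, 6.86 and 6.86 in the CD95L-T4 total arrays. In the control polysomal arrays it was 7.35, 7.40, 7.40 and 7.33, and in the control total arrays 6.90, 6.98, 6.91 and 6.89. Averaged over arrays it was 7.34 ± 0.05 (SD, n = 3) in CD95L-T4 polysomal and 6.92 ± 0.07 (SD, n = 4) in CD95L-T4 total RNA, and 7.37 ± 0.03 (SD, n = 4) in control polysomal and 6.92 ± 0.04 (SD, n = 4) in control total RNA. The mean over the members differed less, at 6.99 to 7.10 in CD95L-T4 polysomal and 6.82 to 6.89 in CD95L-T4 total arrays. That mean was 7.05 to 7.09 in control polysomal and 6.83 to 6.85 in control total arrays. The median over all probe sets ran the other way, at 6.85 to 6.88 in CD95L-T4 polysomal, 6.92 to 6.98 in CD95L-T4 total, 6.83 to 6.85 in control polysomal and 6.93 to 6.95 in control total arrays.

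The first comparison asks which members are over- or underrepresented in polysomal RNA of untreated cells. In control cultures 120 of the 254 probe sets (47.2%) were higher in polysomal than in total RNA at an adjusted p under 0.05 (limma, Benjamini-Hochberg over all probe sets), where 29.8% of all probe sets were called higher. Another 44 members (17.3%) were lower, where 26.3% of all probe sets were called lower, and 90 were not called. The median difference of the members was 0.22, with quartiles of -0.07 and 0.58 and a range of -2.25 to 1.45, against a median of 0.06 and quartiles of -0.28 and 0.30 over all probe sets. Counted by gene, with the brightest probe set standing for each, 98 of 173 genes (56.6%) were higher and 20 (11.6%) lower, against 33.5% and 23.2% of all genes. When the arrays were scaled to equal medians, 154 members were higher and 32 lower, so 82.8% of the called members were higher, against 73.2% on the deposited values. That scaling moved the same share over all probe sets to 63.3%, from 53.1% on the deposited values.

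**Figure D1:**
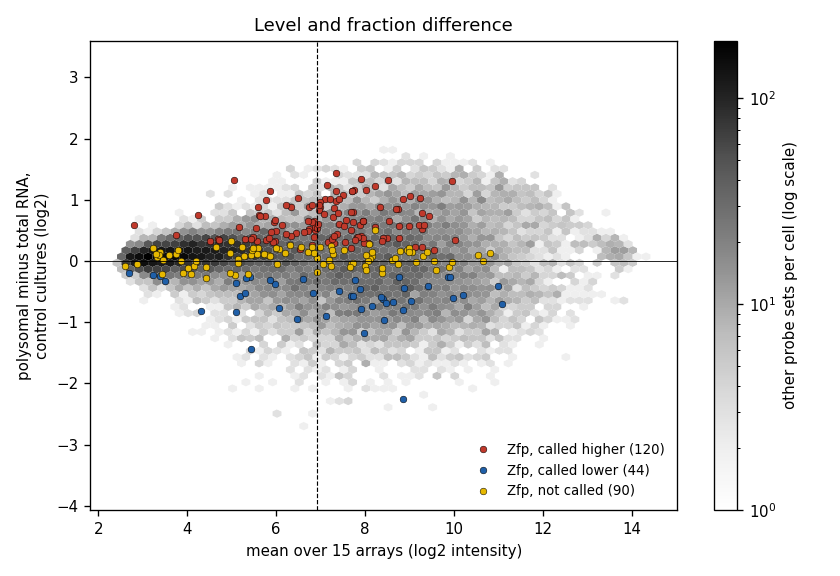
Each point is a Zfp probe set, with its mean log2 intensity over the 15 arrays on the x axis and its polysomal minus total difference in control cultures (log2) on the y axis, coloured by the limma call. Grey cells count the other probe sets (log scale), and the dashed line is the median level of 6.92. Most of the 120 members called higher lie at middle levels, and the lowest point, at -2.25, is a probe set of Zfp207.

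Genes are ranked here by their brightest probe set, among called genes whose groups did not overlap. By this ranking the largest rise in polysomal RNA of control cultures was that of Zfp593, whose yeast relative Bud20 acts in export of the large ribosomal subunit. Its values were 8.12, 8.12, 8.15 and 8.02 in control polysomal RNA, against 6.77, 6.77, 6.61 and 6.48 in control total RNA. In CD95L-T4 cultures they were 7.84, 8.32 and 7.96 in polysomal RNA, against 6.75, 6.69, 6.68 and 6.85 in total RNA. No polysomal array of either culture overlapped with a total array. The difference was 1.45 ± 0.10 (SE, n = 4 and 4; 2.72-fold; adjusted p = 1.21e-09, limma) in control cultures and 1.30 ± 0.10 (SE, n = 3 and 4; adjusted p = 1.76e-08, limma) in CD95L-T4 cultures.

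Zfp688 followed, with 8.87, 8.64, 8.60 and 8.77 in control polysomal RNA, against 7.40, 7.46, 7.29 and 7.36 in control total RNA. In CD95L-T4 cultures it had 8.36, 8.76 and 8.17 in polysomal RNA, against 7.27, 7.30, 7.23 and 7.19 in total RNA. The groups lay apart in both cultures, with differences of 1.34 ± 0.10 (SE; 2.54-fold) and 1.18 ± 0.11 (SE; 2.27-fold). The other genes among the 10 largest rises in control cultures were Zfp119a (2.51-fold), Zfp472 (2.50-fold), Zfp931 (2.46-fold), Zfp354a (2.37-fold), Zfp958 (2.33-fold), Zfp105 (2.24-fold), Zfp36 (2.22-fold) and Zfp39 (2.22-fold). Zfp354a is known as the kidney gene Kid-1 and encodes a KRAB zinc finger protein. For these 8 genes the polysomal and total arrays of control cultures did not overlap, and their adjusted p lay between 4.88e-10 (Zfp105) and 1.26e-05 (Zfp39).

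By the same ranking the largest fall was that of Zfp445, although dimmer probe sets of Zfp207, Zfp451 and Zfp638 fell further (by 2.25, 1.44 and 1.18 in log2). Zfp445 encodes a KRAB zinc finger protein that protects genomic imprints, and its values were 8.10, 8.02, 7.85 and 7.88 in control polysomal RNA, against 8.78, 8.93, 9.07 and 8.96 in control total RNA. In CD95L-T4 cultures they were 7.60, 7.93 and 7.71 in polysomal RNA, against 8.97, 8.90, 8.96 and 8.85 in total RNA. The highest polysomal array thus lay under the lowest total array in both cultures. The difference was -0.97 ± 0.09 (SE; 1.96-fold; adjusted p = 3.13e-08, limma) in control cultures and -1.17 ± 0.09 (SE; 2.26-fold; adjusted p = 1.59e-08, limma) in CD95L-T4 cultures. This probe set is of the _s_at type, which can read transcripts of more than 1 gene, and the other Zfp445 probe set fell by 0.73 in control cultures. Zfp57, another KRAB protein of imprinted genes, was dim at 4.71 and differed by 0.34 ± 0.11 (SE; adjusted p = 0.0149, limma), in the opposite direction. Its control polysomal values were 4.71, 4.76, 5.19 and 4.75, against 4.58, 4.67, 4.44 and 4.36 in control total RNA. That call was lost without control polysomal replicate 3 or without control total replicate 4.

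Falls of the other genes among the 10 largest in control cultures were 1.87-fold for Zfp704, 1.70-fold for Zfp354c, 1.63-fold for Zfp207, 1.58-fold for Zfp518b and 1.52-fold for Zfp106. They were 1.48-fold for Zfp871, 1.40-fold for Zfp318, 1.36-fold for Zfp638, a nuclear protein that binds RNA and takes part in splicing, and 1.32-fold for Zfp36l2. Over these brightest probe sets the tenth fall was 1.32-fold and the tenth rise 2.22-fold, while over all member probe sets the largest difference of either sign was a fall. The other Zfp704 probe set, of nearly the same level (7.05 against 7.13), was not called at -0.06 ± 0.16 (SE). Of the dimmer probe sets of Zfp318, 1 of 3 was called lower. The adjusted p of these 9 genes lay between 3.26e-07 (Zfp207) and 0.000353 (Zfp871), and their groups did not overlap. Zfp148, which binds GC-rich promoters, fell by 0.40 ± 0.09 (SE; adjusted p = 0.000732, limma) on its brightest probe set and by 0.62 on another, while its other 2 probe sets were not called, at 0.08 and 0.04. Zfp521, a partner of the EBF transcription factors, fell by 0.32 ± 0.08 (SE; adjusted p = 0.00271, limma).

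Promoter sequences of 4 of these genes are shown as examples from both directions, a pair among the 10 largest rises and a pair among the 10 largest falls. They were picked after their values were seen, among genes with a single RefSeq window, and are not the 4 most different genes. Each is the 100 bases before the gene's start, 5′ to 3′, from RefSeq on GRCm38.p6. Capitals mark the GC box GGGCGG or the motif CCGGAAG, the core read by ETS factors, on either strand. The first 2 rose, at chr7:127422035-127422134 on the minus strand and chr17:32965731-32965830 on the plus strand. The last 2 fell, at chr9:122866007-122866106 on the minus strand and chr11:80383179-80383278 on the plus strand.
Zfp688: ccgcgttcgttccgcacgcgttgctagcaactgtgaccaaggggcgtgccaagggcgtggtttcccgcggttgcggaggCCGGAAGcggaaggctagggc
Zfp472: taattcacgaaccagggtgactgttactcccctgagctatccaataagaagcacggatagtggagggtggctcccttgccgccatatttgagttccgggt
Zfp445: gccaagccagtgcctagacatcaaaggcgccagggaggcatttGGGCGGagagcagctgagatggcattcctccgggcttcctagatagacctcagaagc
Zfp207: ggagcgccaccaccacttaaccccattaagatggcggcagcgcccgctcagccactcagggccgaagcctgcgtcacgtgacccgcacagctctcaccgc
Of the 4 windows, that of Zfp688 held CCGGAAG and that of Zfp445 held GGGCGG, while those of Zfp472 and Zfp207 held neither in these 100 bases. The windows of Zfp119a, which rose, and Zfp518b, which fell, were drawn in the same way and also held neither. They are not printed. RefSeq gave 168 promoter windows, from 250 bases before to 50 after the start, for 139 of the 173 genes. GGGCGG on either strand was in 50.6% of them and in 35.7% of all 32851 RefSeq windows. Those are windows of 27025 genes, whether or not the arrays measured them. The 2 sets are thus unlike, and no trait of the family is read from these shares. The share with GGGCGG was 50% among windows of genes higher in control polysomal RNA, 55.6% among those lower and 50% among those not called. CCGGAAG was in 19% of the Zfp windows and 8.86% of all windows, with 19.2% for higher, 11.1% for lower and 21.7% for not called genes. For both motifs these shares rest on 104 windows of higher, 18 of lower and 46 of not called genes. The 11.1% is thus 2 windows. The motifs can share bases where they meet, windows of neighbouring or duplicated genes share sequence, and no test was made.

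**Figure D2:**
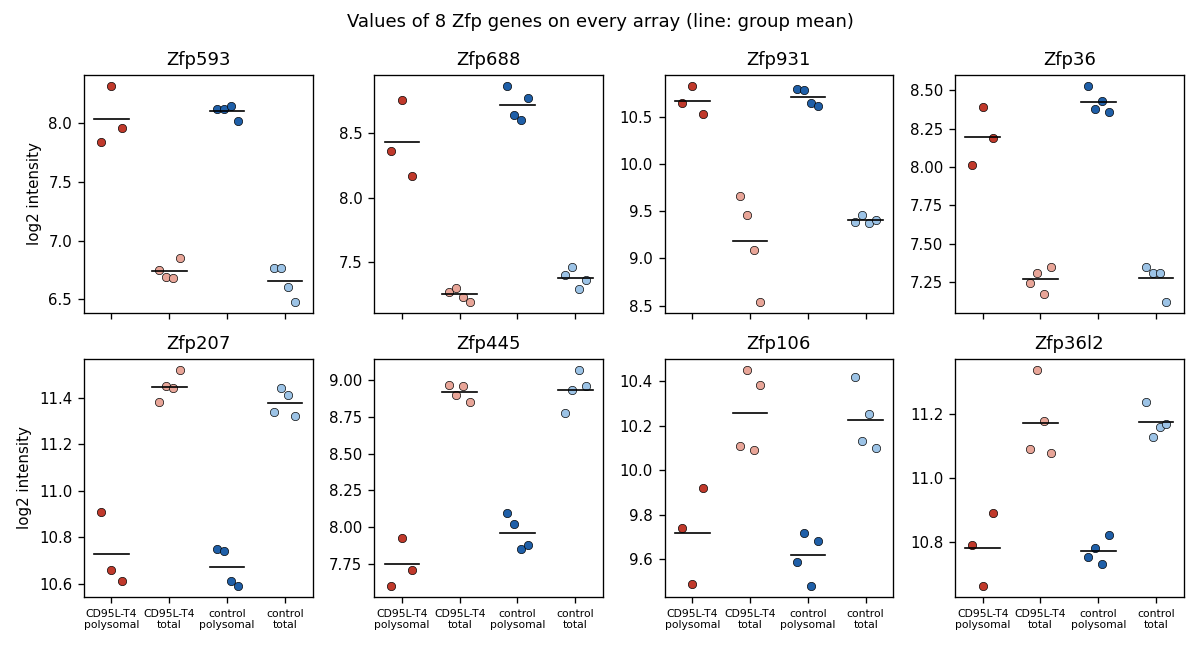
Each panel is 1 gene, each point 1 array (log2 intensity) and each line a group mean, with CD95L-T4 polysomal, CD95L-T4 total, control polysomal and control total from left to right. The upper 4 genes are higher and the lower 4 lower in every polysomal array than in every total array, and the y axes do not start at 0.

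The 3 members of the mRNA decay group differed in direction. Zfp36, known as tristetraprolin, had 8.53, 8.38, 8.43 and 8.36 in control polysomal RNA, against 7.35, 7.31, 7.31 and 7.12 in control total RNA. Zfp36l2 had 10.75, 10.78, 10.73 and 10.82 in control polysomal RNA, against 11.24, 11.13, 11.16 and 11.17 in control total RNA. Zfp36l1 had 9.86, 9.83, 9.86 and 9.81 in control polysomal RNA, against 9.85, 10, 10.04 and 9.88 in control total RNA. Zfp36 was thus higher and Zfp36l2 lower in every polysomal array, whereas the arrays of Zfp36l1 overlapped. The differences were 1.15 ± 0.08 (SE, n = 4 and 4; adjusted p = 3.31e-09), -0.41 ± 0.07 (SE; adjusted p = 0.000131) and -0.10 ± 0.08 (SE; adjusted p = 0.318), all by limma. In CD95L-T4 cultures they were 0.93 ± 0.09, -0.39 ± 0.08 and 0.12 ± 0.09 (SE, n = 3 and 4). Of the 2 dimmer probe sets of Zfp36l2, 1 was called lower at -0.52 and 1 was not called at 0.11 in control cultures.

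Several members with a known role were not called between the fractions on their brightest probe set. Zfp24 differed by -0.01 ± 0.08 (SE), Zfp622 by 0.09 ± 0.07 (SE), Zfp330 by 0.13 ± 0.07 (SE) and Zfp281, another binder of GC-rich promoters, by -0.06 ± 0.09 (SE) in control cultures, none of them past the threshold. Zfp423, an EBF partner like Zfp521, differed by -0.05 ± 0.17 (SE) and Zfp292 by -0.20 ± 0.10 (SE), which did not pass either. Zfp131 was higher at 10.32, 10.22, 10.18 and 10.15 in control polysomal RNA, against 10, 9.78, 9.87 and 9.82 in control total RNA. Its arrays did not overlap, and the difference was 0.35 ± 0.07 (SE; adjusted p = 0.000423, limma). For Zfp24 the result depends on the probe set: the other 3, at levels of 7.68 to 8.35, gave -0.58, -0.45 and -0.58, all past the threshold. Likewise a dimmer probe set of Zfp281, at 8.63, gave -0.67. Of the 3 dimmer probe sets of Zfp292, 1 was called lower, at -0.58 (adjusted p = 0.000433, limma). The dimmer probe set of Zfp622 was called higher, at 0.22 (adjusted p = 0.0279, limma).

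Probe sets of 1 gene did not always give the same result. Of the 58 genes with several probe sets, 19 had all of them called in the same direction, 30 had some called and some not, 6 had none called and 3 had probe sets called in opposite directions. No such count was made over all genes, so nothing particular to the members is read from it. Of all probe sets, 29.8% were called higher and 26.3% lower. The median spread between the probe sets of a gene was 0.29 in log2. All 5 probe sets of Zfp207 were lower in control polysomal RNA, by -0.69 to -2.25. The probe set of Zfp207 with the widest difference had 7.84, 8.03, 7.48 and 7.61 in control polysomal RNA, against 9.85, 10.03, 10 and 10.07 in control total RNA. That is a 4.75-fold difference with adjusted p = 2.67e-10 (limma), beside 1.63-fold for the brightest Zfp207 probe set.

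The 3 genes with opposite calls were Zfp451, Zfp106 and Zfp101. For Zfp451, a SUMO ligase, the brighter probe set had 8.95, 8.97, 8.90 and 8.96 in control polysomal RNA, against 8.63, 8.51, 8.61 and 8.51 in control total RNA. The dimmer probe set of Zfp451 had 4.68, 5.05, 4.68 and 4.61 in control polysomal RNA, against 5.73, 6.21, 6.48 and 6.36 in control total RNA. Both sets of arrays lay apart, in opposite directions, at 0.38 ± 0.07 (SE) and -1.44 ± 0.18 (SE). Of the 5 probe sets of Zfp106, 3 were lower (-0.61, -0.78 and -0.80), 1 was higher (0.60) and 1, the dimmest, was not called (0.10). The Zfp101 probe sets gave 0.29 and -0.36, with the negative value from the dimmer one. The table does not say which transcript or which end of it a probe set reads, and the part of probe position in these differences was not tested.

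**Figure D3:**
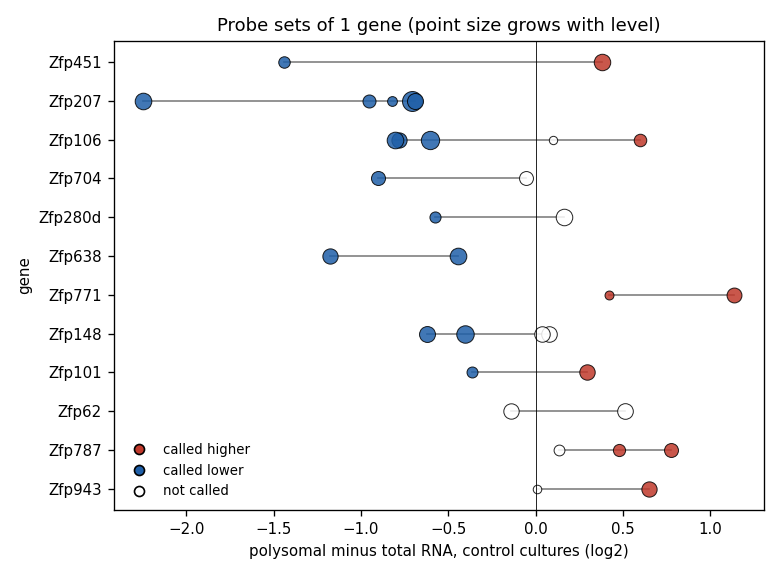
Each row is 1 gene with several probe sets, and each point 1 of its probe sets at its polysomal minus total difference in control cultures (log2), larger for brighter probe sets. Red marks called higher, blue called lower and white not called. The 12 genes shown have the widest spread, and Zfp451, Zfp106 and Zfp101 have both red and blue points.

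The same comparison in CD95L-T4 cultures gave values close to those of control cultures for most members. Of the 254 members, 113 (44.5%) were higher in polysomal RNA, where 26.7% of all probe sets were, and 40 (15.7%) were lower, where 24.6% were. The median difference was 0.20, against 0.04 over all probe sets. By gene, 93 (53.8%) were higher and 19 (11%) lower, against 29.6% and 21.8% of all genes. With arrays scaled to equal medians, 80.8% of the called members were higher, against 73.9% on the deposited values, and over all probe sets 62.1% against 52.1%. Between the cultures, 103 members were called higher in both, 37 lower in both and 0 in opposite directions, while 24 were called in control cultures alone, 13 in CD95L-T4 cultures alone and 77 in neither. The sign was the same for 227 of the 254. The 2 comparisons use different arrays, though the spread of each probe set was estimated over all of them. Across the 254 members the differences of both cultures correlated at 0.96 (Pearson) and 0.95 (Spearman), as did those of all probe sets at 0.96 and 0.92.

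The 10 largest rises in CD95L-T4 cultures were those of Zfp931 (2.79-fold), Zfp593 (2.46-fold), Zfp472 (2.39-fold), Zfp958 (2.34-fold), Zfp688 (2.27-fold), Zfp51 (2.25-fold), Zfp39 (2.16-fold), Zfp959 (2.15-fold), Zfp105 (2.12-fold) and Zfp868 (2.05-fold). Zfp51, Zfp959 and Zfp868 had passed in control cultures too, at 2.02-fold, 2.20-fold and 2.11-fold. Zfp931 had 10.65, 10.83 and 10.53 in CD95L-T4 polysomal RNA, against 9.66, 9.46, 9.09 and 8.54 in CD95L-T4 total RNA. The total RNA arrays of Zfp931 were wider apart here than in control cultures, where they lay at 9.39, 9.46, 9.37 and 9.41. This probe set is of the _x_at type, which can also read other transcripts. The 10 largest falls were those of Zfp445 (2.26-fold), Zfp704 (1.85-fold), Zfp354c (1.74-fold), Zfp518b (1.70-fold), Zfp207 (1.65-fold), Zfp871 (1.5-fold), Zfp106 (1.46-fold), Zfp318 (1.43-fold), Zfp316 (1.33-fold) and Zfp36l2 (1.31-fold). Of these, Zfp316 was not among the 10 of control cultures, where its arrays overlapped at a fall of 1.30-fold. Zfp148 and Zfp521 were lower by 0.26 ± 0.09 and 0.24 ± 0.09 (SE; adjusted p = 0.0275 and 0.0294, limma), and both calls were lost under several of the alternatives tried.

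**Figure D4:**
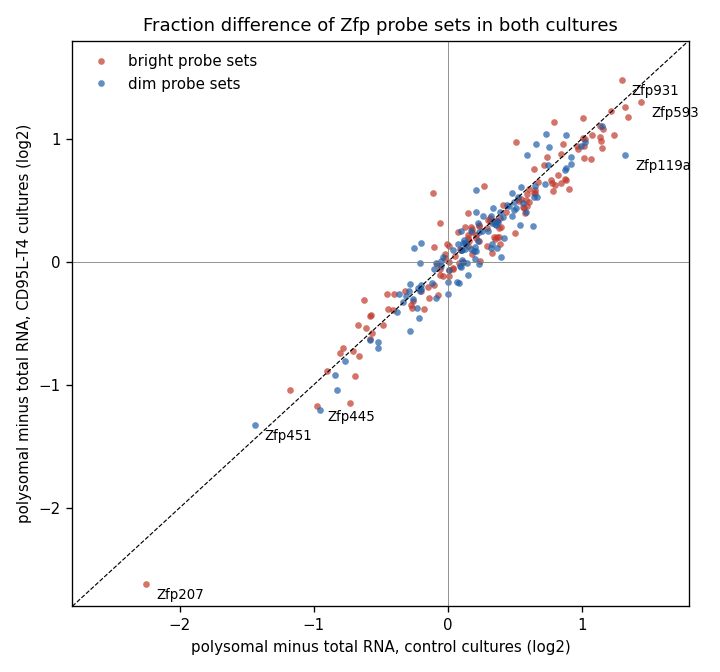
Each point is 1 of the 254 Zfp probe sets, at its polysomal minus total difference in control cultures (x axis, log2) and in CD95L-T4 cultures (y axis, log2), coloured by bright or dim level. The dashed line marks equal differences. The points lie close to it (Pearson 0.96), and the lowest is the Zfp207 probe set at -2.25 and -2.62.

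Bright and dim members were compared next, with a probe set called bright if its mean over all arrays was above the median of all probe sets. Of 141 bright members in control cultures, 73 (51.8%) were higher in polysomal RNA and 26 (18.4%) lower, against 37.3% and 38.9% of all bright probe sets. Of 113 dim members, 47 (41.6%) were higher and 18 (15.9%) lower, against 22.4% and 13.8% of all dim probe sets. The median difference was 0.27 for bright and 0.20 for dim members, against -0.02 and 0.08 for all bright and all dim probe sets. The order of the bright and dim medians turned, to 0.19 for bright and 0.24 for dim members, when level was taken from the control total arrays alone. The order of bright and dim members thus depends on how level is defined. In CD95L-T4 cultures the bright members had 73 higher and 26 lower with a median of 0.27, and the dim members 40 higher and 14 lower with a median of 0.14. These are 51.8% and 18.4% of the bright members, against 37.7% and 35.4% of all bright probe sets, and 35.4% and 12.4% of the dim members, against 15.8% and 13.7% of all dim probe sets. Dim members varied more between arrays of a group, with a median SD of 0.13 in control polysomal and 0.12 in control total arrays, against 0.10 and 0.08 for bright members.

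By level class, 13.3% of the dimmest members were called higher in control cultures, then 51.8%, 56.6% and, in the brightest class, 37.1%. The matching shares of all probe sets were 15.2%, 29.5%, 34.8% and 39.7%. Members called lower made up 16.7%, 15.7%, 17% and 22.9% of the classes, against 5%, 22.6%, 39% and 38.7% of all probe sets. The higher share of members over all probe sets thus lay in the middle classes, where the medians were 0.30 and 0.35, against 0.10 and -0.04 for all probe sets. In the dimmest class, of 30 members, the median was 0.00, against 0.08 for all probe sets of that class. In the brightest, of 35 members, it was 0.15, against 0.01.

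**Figure D5:**
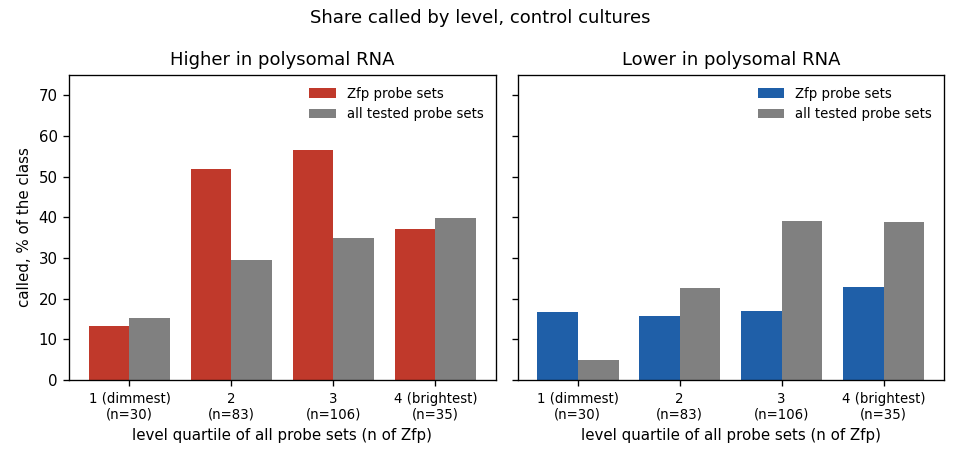
Bars give the share (%) of Zfp probe sets (coloured) and of all tested probe sets (grey) called higher (left panel) or lower (right panel) in polysomal RNA of control cultures, by level class from dimmest to brightest. In the middle classes 51.8% and 56.6% of the members are called higher, against 29.5% and 34.8% of all probe sets.

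Position in the genome and probe type were looked at next. The choice of members did not use probe type, but neighbours were found by the same Zfp symbols that define the members. Of the member genes, 87 lie next to another Zfp gene in the order of protein coding genes along the chromosome, and 84 do not. The pseudogene and the long noncoding RNA are in neither class. Among those with a Zfp neighbour, 56 (64.4%) were higher in control polysomal RNA and 6 (6.90%) lower, with a median of 0.50. Among those without one, 42 (50%) were higher and 14 (16.7%) lower, with a median of 0.27. In CD95L-T4 cultures the counts were 52 higher and 7 lower with a neighbour, and 41 higher and 12 lower without one. The median level was 6.97 with and 7.80 without a Zfp neighbour, and neighbours in a cluster can be close in sequence, so that probes of one may read another. Over all genes 33.5% were higher and 23.2% lower in control cultures, and 29.6% and 21.8% in CD95L-T4 cultures. The 21 members of the _s_at or _x_at type gave 12 higher (57.1%) and 3 lower (14.3%) in control cultures, against 32.6% and 28.1% of all probe sets of that type. The 233 others gave 108 higher (46.4%) and 41 lower (17.6%), against 29.4% and 26.1%.

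The second comparison asks which members changed after CD95L-T4 in total RNA, that is, in mRNA level. limma called 0 of the 254 members, as of all probe sets (0%), with 11 members (4.33%) at an unadjusted p under 0.05, where 3.74% of all probe sets had one. The median difference was 0.02, and for 249 members (98%) the 95% interval held no change beyond 1.5-fold. The CD95L-T4 and control arrays did not overlap for 6 members (2.36%), as for 2.52% of all probe sets. The smallest p belonged to Zfp94, at 0.28 ± 0.10 (SE), Zfp617 at -0.26 ± 0.10, Zfp62 at -0.58 ± 0.23, Zfp942 at -0.37 ± 0.16 and Zfp605 at 0.31 ± 0.14, each at adjusted p = 0.997. Zfp62 had 8.25, 8.16, 6.96 and 6.95 in CD95L-T4 total RNA, against 8.10, 8.07, 8.24 and 8.21 in control total RNA. Zfp942 had 8.08, 8.05, 7.25 and 7.43 in CD95L-T4 total RNA, against 8.09, 7.99, 8.15 and 8.05 in control total RNA. In both genes replicates 3 and 4 of the CD95L-T4 total arrays stood below the other total arrays, while replicates 1 and 2 lay close to the controls. The other Zfp62 probe set did not show this gap, with 8.17, 8.26, 8.06 and 7.80 in CD95L-T4 total RNA, against 8.10, 8.04, 8.27 and 8.24 in control total RNA. The 95% interval of the 3 decay factors lay within 1.5-fold, with Zfp36 at -0.01 ± 0.08, Zfp36l1 at -0.11 ± 0.08 and Zfp36l2 at 0.00 ± 0.07 (SE).

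In polysomal RNA limma again called 0 members, as of all probe sets (0%), with 17 (6.69%) at an unadjusted p under 0.05, where 9.65% of all probe sets had one. The median was -0.02, the lowest adjusted p 0.474, and the interval lay within 1.5-fold for 249 members (98%). Arrays did not overlap for 7 members (2.76%), as for 5.42% of all probe sets. By smallest p the genes were Zfp820 at 0.29 ± 0.10, Zfp474 at -0.22 ± 0.08, Zfp119a at -0.33 ± 0.12, Zfp688 at -0.29 ± 0.11 and Zfp36 at -0.23 ± 0.09 (SE, n = 3 and 4). Zfp820 had 5.17, 5.17 and 5.0 in CD95L-T4 polysomal RNA, against 4.77, 4.97, 4.67 and 4.87 in control polysomal RNA, with no overlap. Zfp36 had 8.01, 8.39 and 8.19 in CD95L-T4 polysomal RNA, against 8.53, 8.38, 8.43 and 8.36 in control polysomal RNA, and replicate 2 of the CD95L-T4 arrays lay among the controls. That replicate also had the highest poly-A controls. Without CD95L-T4 polysomal replicate 2, limma called 3 members (1.18%), where 6.13% of all probe sets were called: Zfp688 at -0.46 ± 0.09 (SE, n = 2 and 4; adjusted p = 0.0122), Zfp704 at 0.49 ± 0.13 (adjusted p = 0.0415) and Zfp36 at -0.33 ± 0.09 (adjusted p = 0.0432). The dimmer Zfp704 probe set was not among them. Without that array 47 members (18.5%) had an unadjusted p under 0.05, where 21.7% of all probe sets did. Without CD95L-T4 polysomal replicate 1 it was 9 (3.54%, against 5.97% of all) and without control polysomal replicate 1 it was 8 (3.15%, against 6.5%). In total RNA the count moved to 25 (9.84%, against 7.46% of all) without CD95L-T4 total replicate 1, to 5 (1.97%, against 2.43%) without CD95L-T4 total replicate 4 and to 7 (2.76%, against 3% of all) without control total replicate 3.

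The last comparison asks whether the CD95L-T4 effect differed between polysomal and total RNA (the interaction), in other words whether polysomal share moved apart from level. limma called 0 members, as of all probe sets (0%), with 13 (5.12%) at an unadjusted p under 0.05, where 4.38% of all probe sets had one. The median was -0.04, the lowest adjusted p 0.897, and the interval lay within 1.5-fold for 219 members (86.2%). By smallest p the genes were Zfp119a at -0.46 ± 0.16, Zfp820 at 0.36 ± 0.14, Zfp950 at 0.37 ± 0.15, Zfp474 at -0.25 ± 0.11 and Zfp810 at 0.37 ± 0.16 (SE). Zfp119a had 5.17, 5.51 and 5.71 in CD95L-T4 polysomal RNA and 4.70, 4.52, 4.71 and 4.45 in CD95L-T4 total RNA. In control cultures it had 6.0, 5.74, 5.62 and 5.80 in polysomal RNA and 4.54, 4.38, 4.35 and 4.59 in total RNA. The polysomal arrays lay above the total arrays in both cultures, by 0.87 and 1.33. A probe set of Zfp91, singled out after its values were seen because it had the widest interaction, stood at 0.67 ± 0.27 (SE; adjusted p = 0.897, limma), with 0.56 in CD95L-T4 and -0.11 in control cultures. Its total RNA values were spread widely, at 8.72, 7.68, 8.20 and 7.97 in CD95L-T4 and 7.94, 8.81, 8.50 and 8.45 in control cultures. Without CD95L-T4 polysomal replicate 2, 33 members (13%) had an unadjusted p under 0.05 in the interaction, where 15.6% of all probe sets did.

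The partners through which KRAB zinc finger proteins silence chromatin are not members and were looked at as a list of 26 genes, of which 19 were measured, with 1 probe set each. In control cultures 2 were higher in polysomal RNA, 11 lower and 6 not called, with a median of -0.47, and in CD95L-T4 cultures 2 were higher and 11 lower, with a median of -0.39. Of all genes, also counted by their brightest probe set, 33.5% were higher and 23.2% lower in control cultures. In CD95L-T4 cultures 29.6% of all genes were higher and 21.8% lower. The list was bright by its median level of 9.64. The shares of all bright probe sets below count a gene more than once where it has several. Of all bright probe sets, 37.3% were higher and 38.9% lower in control cultures, against 10.5% and 57.9% of the list. In CD95L-T4 cultures the shares of all bright probe sets were 37.7% and 35.4%, against 10.5% and 57.9% of the list. The largest rise was 1.38-fold for Cbx3, a heterochromatin protein, and the largest fall 2.92-fold for Atrx, a chromatin remodeller. Both of these probe sets were dim, at levels of 5.68 and 6.64. Trim28 and Setdb1, named for their role after their values were seen, fell too. Trim28 had 10, 9.97, 10.19 and 10.24 in control polysomal RNA, against 11.35, 11.17, 11.17 and 11.17 in control total RNA. It was 2.17-fold lower in polysomal RNA (adjusted p = 3.01e-08, limma), without overlap. Setdb1 was 1.40-fold lower (adjusted p = 2.77e-05, limma). Counts of 3 other groups of zinc finger genes, taken by symbol alone, stand beside 29.8% higher and 26.3% lower over all probe sets in control cultures. Whether each of their genes carries C2H2 fingers was not checked. Of 34 Zbtb probe sets 21 (61.8%) were higher and 4 (11.8%) lower, with a median of 0.35. Of 19 Zscan or Zkscan probe sets 12 (63.2%) were higher and 0 lower, with a median of 0.36. Of 44 Klf or Sp probe sets 12 (27.3%) were higher, a share near that of all probe sets, and 6 (13.6%) lower, with a median of 0.06.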

How the data were processed

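The 15 samples were hybridised to Affymetrix mouse arrays, and the deposited values are log2 intensities, which the authors gave with 2 decimals. Their normalization method is not given in the sources used here. All columns belonged to mapped samples. The table has 22690 probe sets, of which 64 are Affymetrix controls and were not tested. Of the 22626 tested, 20380 name 1 gene, 691 several and 1555 none in the platform annotation. All 173 member genes were found by identifier in the RefSeq gene table, with 0 changed symbols. Arrays have no read depth, and their number limits the precision.

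A limma model (version 3.58.1, R 4.3.3) with a mean for each of the 4 groups was fitted to all arrays, and variances were moderated by empirical Bayes (prior degrees of freedom 5.78). Tests were two-sided, with Benjamini-Hochberg adjustment over every tested probe set of a contrast and 0.05 as the threshold. SE denotes moderated standard errors. The steps were checked on simulated data in which few probe sets were changed, all by the same amount. That setting differs from the polysomal against total comparisons, where many probe sets differ by smaller amounts, so it does not bear on those calls. The brightest probe set stood for a gene.

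Members, lists and tests were chosen with earlier results of these data known. The rule for named genes took 23 genes of known role where measured (15), the 10 largest rises and falls of each fraction contrast among called members whose groups did not overlap, the 5 smallest p of each other contrast, the 8 brightest and 3 dimmest members, members with opposite probe sets, and the largest rise and fall of the KRAB partner list. Members could not be divided by KRAB domain or number of fingers, since proteins were not analysed here. Alternatives were other scalings, filters on the dimmest 25% or 50%, a size threshold of 0.5 in log2, other variance models, other definitions of level, a replicate block and leaving out each array. Deviations of same-numbered arrays from their group means correlated at -0.23 to 0.22 over 21 pairs, 7 of them over 0.1. In no contrast of a pair of groups were all correlations over 0.1, so numbers were not used as pairs. All 4 were (0.14 to 0.22) between CD95L-T4 total and control polysomal arrays, which are not set against each other directly.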

Additional observations from a re-analysis of the deposited data

Results flagged for a closer look

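Of the 50 named genes, each was looked at in the 3 groups of 4 arrays, and in 7 of these 150 cases 1 array stood far from the other 3 by Dixon's test at 95%. Chance gives about 1 in 20 groups. Zfp57 stood at 5.19 in control polysomal replicate 3, against 4.71 to 4.76 in the others, and its polysomal against total call in control cultures was lost without that array, as it was without control total replicate 4. Zfp810 stood at 5.56 in control total replicate 1 (others 5.27 to 5.30), and Zfp868 at 7.08 in the same array (others 7.0 to 7.01). In CD95L-T4 total arrays, Zfp950 stood at 3.13 in replicate 4 (others 3.41 to 3.43). Zfp423 stood at 6.22 (others 6.05 to 6.07) and Zfp982 at 2.83 (others 2.63 to 2.65) in replicate 2, and Zfp42 at 2.88 in replicate 3 (others 2.91). The gap of Zfp42 is 0.03 in log2. For no named gene were all CD95L-T4 arrays above the control mean in total RNA and below it in polysomal RNA, or the reverse.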

How the results depend on the processing

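Of 3585 values of named genes under alternatives (145 comparisons), 3533 stayed on their side of the threshold, 41 lost a call and 11 gained one. These values pool the polysomal against total comparisons with those for CD95L-T4 and the interaction. In the latter 0 probe sets were called on the deposited values, so no call could be lost there. Some arrays left out also lay outside the groups compared. The counts are thus no measure of how stable the polysomal against total calls were. Among values called on the deposited values or under the alternative, 0 changed direction. Changes of sign among uncalled values were not counted. In control cultures the member median (0.22) was 0.26 with quantile normalization over all arrays, 0.31 with equal medians, and 0.28 and 0.27 without the dimmest 25% and 50% of probe sets. Leaving out 1 array gave 0.21 to 0.23. Without the dimmest 50%, 75 of 141 member probe sets were higher, 26 lower and 64 genes higher, from fewer probe sets tested. Of all 11313 probe sets left, 4337 were higher and 4530 lower. With differences over 0.5 required, 75 member probe sets were higher, 25 lower and 7 genes lower, and equal medians left 13 genes lower. Over all 22626 probe sets, 3336 were higher and 3880 lower by more than 0.5. Gene counts under the alternatives were not made over all genes. In CD95L-T4 cultures the median (0.20) was 0.29 with equal medians, 0.27 without the dimmest 25% and 0.27 without 50%. Differences over 0.5 left 69 member probe sets higher, 24 lower, 60 genes higher and 8 lower, against 3298 higher and 3695 lower of all 22626 probe sets. The bright and dim medians were 0.19 and 0.24 with level from control total arrays, 0.15 and 0.0013 for the outermost of 4 level classes, 0.36 and 0.30 with equal medians and 0.28 and 0.19 with quantile normalization within each fraction, and the bright one 0.34 over all arrays. The cause of these shifts was not tested. Leaving out 1 array gave 0 to 3 members called for CD95L-T4 in polysomal RNA and 0 to 0 in total RNA and the interaction. The 3 came without CD95L-T4 polysomal replicate 2, where 6.13% of all probe sets were called. A replicate block over all arrays gave 125 members higher and 44 lower in control cultures, 109 and 39 in CD95L-T4 cultures, and 0 called elsewhere. Over all 22626 probe sets that block gave 6783 higher and 5948 lower in control cultures, and 6057 and 5540 in CD95L-T4 cultures. A block within each fraction could not be fitted for the polysomal against total comparisons. Groups of 3 or 4 arrays limit the precision: the median standard error of a member was 0.10 for CD95L-T4 in total and 0.11 in polysomal RNA and 0.14 in the interaction.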

Other observations

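A further 16 probe sets name a Zfp gene together with other genes and are not members. In control cultures 7 of them were higher in polysomal RNA, 2 lower and 7 not called, with differences of -0.30 to 0.82 and a median of 0.21, at a median level of 7.32. In CD95L-T4 cultures 8 were higher and 0 lower. Of all probe sets, 29.8% were higher and 26.3% lower in control cultures, and 26.7% and 24.6% in CD95L-T4 cultures.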
